A study of Homo sapiens with 6 samples.

Results

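The genes described here are those of the mitochondrial ribosomal proteins, taken as every protein-coding gene whose symbol is MRPL or MRPS followed by a digit in the GENCODE annotation of GRCh38. The rule found 78 genes among the 58395 listed in the files, and it used no measured value. All 78 passed the filter on low counts that left 15566 genes for testing. A further 86 listed genes share the symbol pattern but are pseudogenes or non-coding and were not counted as members.

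RNA was sequenced from HCT116, a human colorectal cancer cell line, in 2 groups of 3 libraries. The shControl cells carried a lentiviral hairpin with no target, and the shSTBD1 cells a hairpin against STBD1, which encodes a protein that binds glycogen and is proposed to deliver it to autophagosomes. Both groups came through viral infection and drug selection, no other alteration is stated for either group, and the labels do not say whether a line is 1 clone. The comparison asks how the levels of the other transcripts differ where STBD1 RNA is lowered. The paper lists 1 hairpin for each group. Effects of a hairpin or of a line therefore cannot be told apart from those of STBD1. Protein was not measured in these files.

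Mitochondria carry their own ribosomes, which make the 13 proteins encoded by the mitochondrial genome, all of them parts of the respiratory chain and ATP synthase. Every protein of this ribosome is encoded in the nucleus, made in the cytosol and imported, whereas its ribosomal RNAs come from the mitochondrial genome itself. Some of the proteins have counterparts in bacterial ribosomes and others are particular to mitochondria. The M in each symbol stands for mitochondrial, and L and S for large and small subunit. The symbols do not always give the place: MRPS18A and MRPS30 sit in the large subunit, and MRPS36 is a part of the 2-oxoglutarate dehydrogenase complex, not of the ribosome.

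Start regions are shown for a few members that differed between the groups, with a motif found there. RefSeq gave promoter windows, from 250 bases before to 50 after the start, for 69 of the 78 members. The motif CCGGAAG, which ETS-family factors such as the one built from GABPA bind, was searched on either strand. It was found for 30 of the 69 members (43.5%), for 21.9% of the other tested protein-coding genes and in 10.3% of all 35116 windows. The shares of members and of other genes count a match in any window of the gene. The motif AAGATGGCG, bound by YY1, was in 13 of 69 (18.8%), against 4.52% of the other tested genes and 1.75% of all windows. Shown are 75 bases before to 25 after the start for 3 members that were higher and 2 that were lower in shSTBD1, 5′ to 3′ on the strand of the gene, with the motif in capitals.
MRPL33: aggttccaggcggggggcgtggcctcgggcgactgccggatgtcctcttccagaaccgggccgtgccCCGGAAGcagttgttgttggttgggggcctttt
MRPL3: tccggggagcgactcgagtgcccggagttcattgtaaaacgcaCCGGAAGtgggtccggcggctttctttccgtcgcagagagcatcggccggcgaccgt
MRPL47: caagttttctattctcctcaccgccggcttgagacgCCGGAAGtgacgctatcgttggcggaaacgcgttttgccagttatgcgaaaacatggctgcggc
MRPS30: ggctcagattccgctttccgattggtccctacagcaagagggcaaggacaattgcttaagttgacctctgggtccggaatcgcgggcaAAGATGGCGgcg
MRPS16: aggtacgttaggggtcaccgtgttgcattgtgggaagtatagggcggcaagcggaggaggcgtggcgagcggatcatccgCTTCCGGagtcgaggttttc

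In RefSeq's GRCh38.p14 these stretches lie at chr2:27771644-27771743 on the plus strand (MRPL33), chr3:131502947-131503046 on the minus strand (MRPL3), chr3:179604614-179604713 on the minus strand (MRPL47), chr5:44808872-44808971 on the plus strand (MRPS30) and chr10:73252620-73252719 on the minus strand (MRPS16). The ETS motif begins 8 bases before the start in MRPL33, 32 before it in MRPL3 and 39 before it in MRPL47. In MRPS16 it stands on the opposite strand just after the start, and in MRPS30 the YY1 motif stands just after the start. A match says only that these letters are there. The 30 members with the ETS motif had a median log2 fold change of 0.089 and the 39 without it 0.070, and members called in either direction carried it, 5 higher and 2 lower of the 13 called members that have a window. The medians for YY1 were 0.042 over the 13 with the motif and 0.073 over the 56 without. The ETS and YY1 motifs can share the letters AAG where the second follows the first. Of 2 further motifs searched on both strands, CGCATGCG (bound by NRF1) was found for 4.35% of the members, for 4.35% of the other tested genes and in 2.02% of all windows. CACGTG, the E-box bound by MYC, was in 13.0%, 12.6% and 7.26%.

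The libraries held 17689097 to 21668274 expected counts, and no member had fewer than 290 or more than 4011 counts in a library. STBD1 was at 16.2, 15.7 and 14.4 CPM (counts scaled to a common library size) in the shControl libraries and at 11.6, 9.06 and 9.18 in the shSTBD1 libraries, so that the groups did not overlap and lay in the order of the labels, with a log2 fold change of -0.64 (SE 0.098; quasi-likelihood test of edgeR, adjusted p = 2.91e-04 after Benjamini-Hochberg adjustment). Of 7 markers of the colon epithelium, EPCAM, CDH1, KRT8, KRT18 and KRT19 were expressed at means of 23.1 to 1340 TPM, VIL1 was at a mean of 0.085 TPM and CDX1 was listed at 0. Of 8 markers of other cells, PTPRC and CD3E were listed at 0, COL1A1 was at 17.8 TPM, DES at 2.63 TPM and the other 4 at 0.198 TPM or less. Of the epithelial markers 5 were tested and 4 were higher in shSTBD1, from a log2 fold change of 0.20 for KRT18 to 0.29 for CDH1, and of 3 tested markers of other cells 0 were called. The part of these in the members' values was not tested. In bulk RNA, fewer cells of a kind and less RNA per cell cannot be told apart.

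The members were well expressed, and unequally so. Per transcript length, their mean levels over the 6 libraries ran from 10.7 TPM for MRPL50, a mitochondria-specific protein of the large subunit, to 280 TPM for MRPL12, a protein of the stalk that recruits translation factors, with a median of 72.4 TPM. MRPL12 stood at 271, 283 and 272 TPM in shControl and at 292, 275 and 286 TPM in shSTBD1, and MRPS34, a mitochondria-specific protein of the small subunit and the next most abundant at a mean of 188 TPM, at 182, 193 and 193 TPM and at 185, 195 and 179 TPM. The ranges of MRPL12 and MRPS34 lay apart in every library, whereas those of the groups overlapped within each gene on this scale. The median coefficient of variation of a member within a group was 3.83% of its CPM.

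Most members were slightly higher in shSTBD1 than in shControl, and few differences passed the test. Of 78 members, 11 were higher (14.1%) and 3 lower (3.85%) at an adjusted p under 0.05, where 8.22% of all tested genes were called higher and 7.54% lower. In either direction 14 members were called (17.9%), against 15.8% of all tested genes. The libraries of the groups did not overlap for 31 members (39.7%), 27 higher and 4 lower, against 33.6% of all tested genes. Over all tested genes 2704 of these were higher and 2531 lower. Among 3401 protein-coding genes of similar length 844 were higher and 310 lower without overlap. The log2 fold change was above 0 in 65 of 78 members (83.3%), compared with 50.7% of all tested genes and 63.6% of protein-coding genes of similar length, and its median was 0.071 over the members and 0.0023 over all tested genes. The median was 0.036 with gene-length offsets, with 49 of 78 above 0, and 0.038 without shControl 1, with 56 of 78 above 0. The values ran from -0.13 to 0.56, with 77 of 78 within 0.25 of 0 and a median SE of 0.048. The median was above 0 in all 18 alternative fits, from 0.036 to 0.092. The split of calls moved with the scaling: 12 higher and 1 lower with library size alone, and 6 higher and 4 lower with gene-length offsets. Calls also depended on single libraries, with 7 higher and 1 lower without shControl 1, 7 and 1 without shControl 2, 8 and 0 without shControl 3, 7 and 0 without shSTBD1 1, 3 and 1 without shSTBD1 2, and 5 and 0 without shSTBD1 3.

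**Figure D1:**
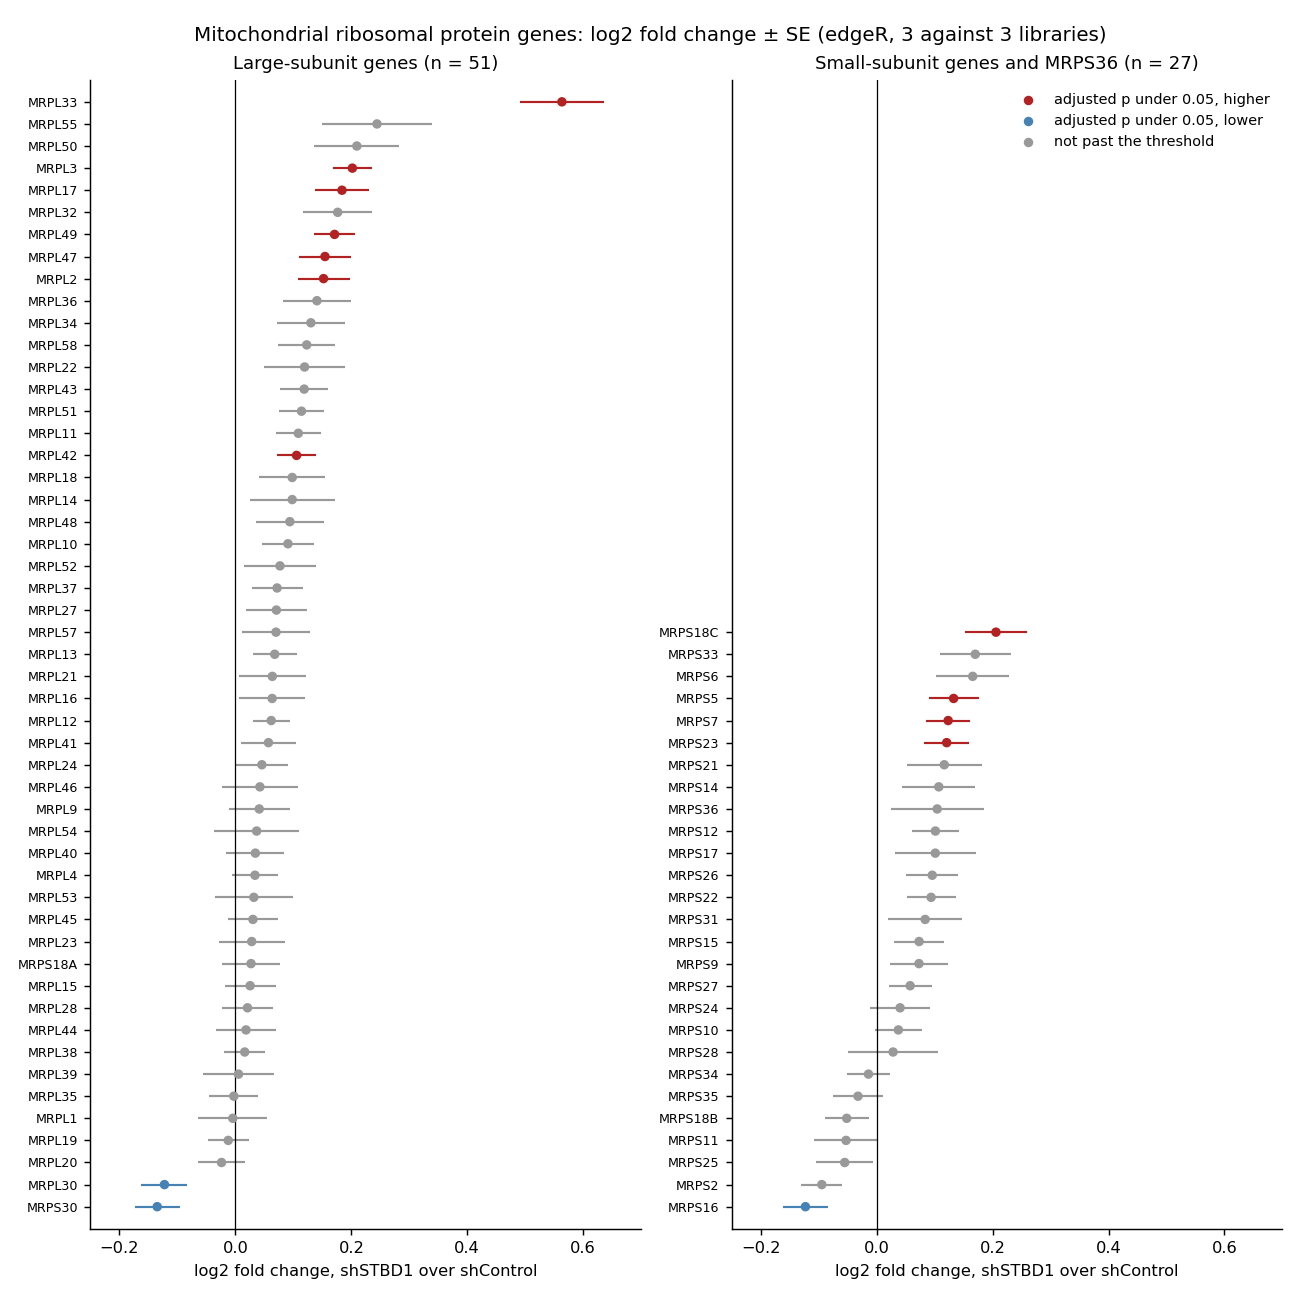
Log2 fold change of shSTBD1 over shControl for each of the 78 members, ordered by size, with large-subunit genes on the left and small-subunit genes and MRPS36 on the right. Points are edgeR estimates from 3 against 3 libraries, bars are 1 SE, and colour marks the 11 members called higher (red) and 3 called lower (blue), while MRPL33 at 0.56 stands apart from the rest.

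Both subunits held members called in each direction. Of 51 large-subunit members 7 were higher and 2 lower (17.6% called), with a median log2 fold change of 0.068 and 45 values above 0. Of 26 small-subunit members 4 were higher and 1 lower (19.2% called), with a median of 0.078 and 19 above 0. The 45 members with a counterpart in bacteria had 8 higher and 2 lower (22.2% called) with a median of 0.073. The 32 without one had 3 higher and 1 lower (12.5% called) with a median of 0.064. Of all tested genes 15.8% were called, and of protein-coding genes of similar length 15.4%. None of these differences between lists was tested.

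MRPL33, a small protein of the large subunit with a bacterial counterpart, differed most. Its levels were 15.5, 16.5 and 17.6 CPM in shControl and 22.5, 25.2 and 25.4 CPM in shSTBD1. All 3 shSTBD1 libraries lay above all shControl libraries, and the means were 16.5 ± 1.04 and 24.3 ± 1.62 CPM (SD, n = 3 each). The log2 fold change was 0.56 (SE 0.072; edgeR adjusted p = 4.87e-05), and MRPL33 was the only member past the threshold in all 18 alternatives. Per length it stood at 84.5, 96.8 and 105 TPM against 130, 146 and 141 TPM. MRPL33 has the shortest mean transcript length of the members, 475 bases, and its length differed little between libraries, from 470 to 478 bases. Its annotated region, on chromosome 2 from 27771717 to 27988087 in GENCODE's GRCh38, overlaps 2 other tested genes. These were BABAM2 with a log2 fold change of -0.088 (edgeR adjusted p = 0.543) and RBKS with 0.15 (edgeR adjusted p = 0.747).

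Among the other core proteins of the large subunit, MRPL3, the counterpart of a bacterial protein that reaches towards the peptidyl transferase centre, was at 167, 159 and 159 CPM in shControl and at 190, 184 and 184 CPM in shSTBD1. The groups did not overlap, and the log2 fold change of 0.20 (SE 0.033; edgeR adjusted p = 5.83e-04) was past the threshold in 16 of 18 alternatives, including each fit that left out a library. MRPL17, which also has a bacterial counterpart, was at 50.6, 56.6 and 53.7 CPM against 62.2, 61.0 and 59.6 CPM, again without overlap. Its log2 fold change was 0.18 (SE 0.047; edgeR adjusted p = 0.0135), and the adjusted p rose to 0.0698 without shSTBD1 1 and to 0.058 without shSTBD1 2. MRPL2, a bacterial-type protein at the heart of the large subunit, was at 51.0, 51.5 and 53.9 CPM against 55.7, 58.1 and 59.8 CPM. MRPL47, at 43.0, 44.7 and 44.8 CPM against 49.4, 48.6 and 49.6 CPM, is the mitochondrial form of a bacterial protein near the exit of the peptide tunnel. Both rose, by 0.15 on the log2 scale (SE 0.045 each; edgeR adjusted p = 0.0293 for MRPL2 and 0.0264 for MRPL47), and neither pair of groups overlapped. With gene-length offsets these 2 calls were lost, at edgeR adjusted p-values of 0.162 and 0.0957. MRPL2 was past the threshold in 8 and MRPL47 in 7 of 18 alternatives. Of the 6 fits that left out a library, MRPL2 passed in 2 and MRPL47 in 1.

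Of the large-subunit proteins particular to mitochondria, MRPL49 stood at 102, 106 and 104 CPM in shControl and at 120, 113 and 119 CPM in shSTBD1. The lowest shSTBD1 library was above the highest shControl library, and the log2 fold change of 0.17 (SE 0.036; edgeR adjusted p = 0.00399) was past the threshold in 15 of 18 alternatives and without each library. MRPL42 was at 147, 145 and 141 CPM against 160, 153 and 153 CPM, with a log2 fold change of 0.11 (SE 0.034; edgeR adjusted p = 0.0422), and past the threshold in 7 of 18 alternatives. Its call was lost with gene-length offsets (edgeR adjusted p = 0.0945). The transcript length RSEM estimated for MRPL42 was shorter in each shSTBD1 library, at 1608 to 1655 bases against 1672 to 1707.

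In the small subunit 4 members were higher. MRPS18C is 1 of 3 human relatives of a single bacterial protein, and the only one that takes the bacterial place in the small subunit. It was at 36.5, 38.7 and 38.3 CPM in shControl and at 41.7, 46.3 and 42.7 CPM in shSTBD1, without overlap. Its log2 fold change was 0.21 (SE 0.053; edgeR adjusted p = 0.0146, and 0.101 without shSTBD1 2). The other relatives did not pass the test: MRPS18A, in the large subunit, had a log2 fold change of 0.027 (SE 0.049; edgeR adjusted p = 0.768) and MRPS18B, in the small subunit, one of -0.052 (SE 0.038; edgeR adjusted p = 0.398). The difference between the relatives was not tested.

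The remaining small-subunit calls were weak. MRPS5, the counterpart of a bacterial protein near the messenger's entry, was at 75.9, 74.3 and 72.0 CPM against 77.9, 79.7 and 86.1 CPM (log2 fold change 0.13, SE 0.043; edgeR adjusted p = 0.0474). MRPS7, whose bacterial counterpart nucleates the head of the subunit, was at 90.4, 92.5 and 93.2 CPM against 95.6, 102 and 103 CPM (0.12, SE 0.038; edgeR adjusted p = 0.0370). MRPS23, particular to mitochondria, was at 97.3, 105 and 104 CPM against 107, 114 and 111 CPM (0.12, SE 0.039; edgeR adjusted p = 0.0435). In each of these the groups were separated by a narrow gap, and each was past the threshold in only 1 of the 6 fits that left out a library. With gene-length offsets these calls were lost too, at edgeR adjusted p-values of 0.0959 for MRPS5, 0.124 for MRPS7 and 0.186 for MRPS23.

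The 3 members that were lower lay in both subunits. MRPS30, a mitochondria-specific protein of the large subunit despite its name, was at 97.6, 97.6 and 97.8 CPM in shControl and at 86.1, 93.4 and 87.0 CPM in shSTBD1. Its log2 fold change was -0.13 (SE 0.039; edgeR adjusted p = 0.0254). MRPS16, whose bacterial counterpart takes part in assembly of the small subunit, was at 96.0, 90.4 and 93.4 CPM against 82.2, 87.5 and 87.0 CPM, with a log2 fold change of -0.12 (SE 0.039; edgeR adjusted p = 0.0425). MRPL30, a large-subunit protein with a bacterial counterpart, was at 70.1, 66.9 and 67.7 CPM against 62.3, 63.5 and 62.1 CPM, with a log2 fold change of -0.12 (SE 0.04; edgeR adjusted p = 0.0459). All 3 shSTBD1 libraries were below the shControl libraries in each gene. None of the 3 calls held in all fits that left out a library: MRPL30 was past the threshold in 0, MRPS16 in 1 and MRPS30 in 2 of the 6 fits that left out a library. The transcript length of MRPS16 was also shorter in shSTBD1, at 1551, 1523 and 1557 bases against 1689, 1679 and 1579, and with effective-length offsets its log2 fold change was -0.020 (edgeR adjusted p = 0.887).

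**Figure D2:**
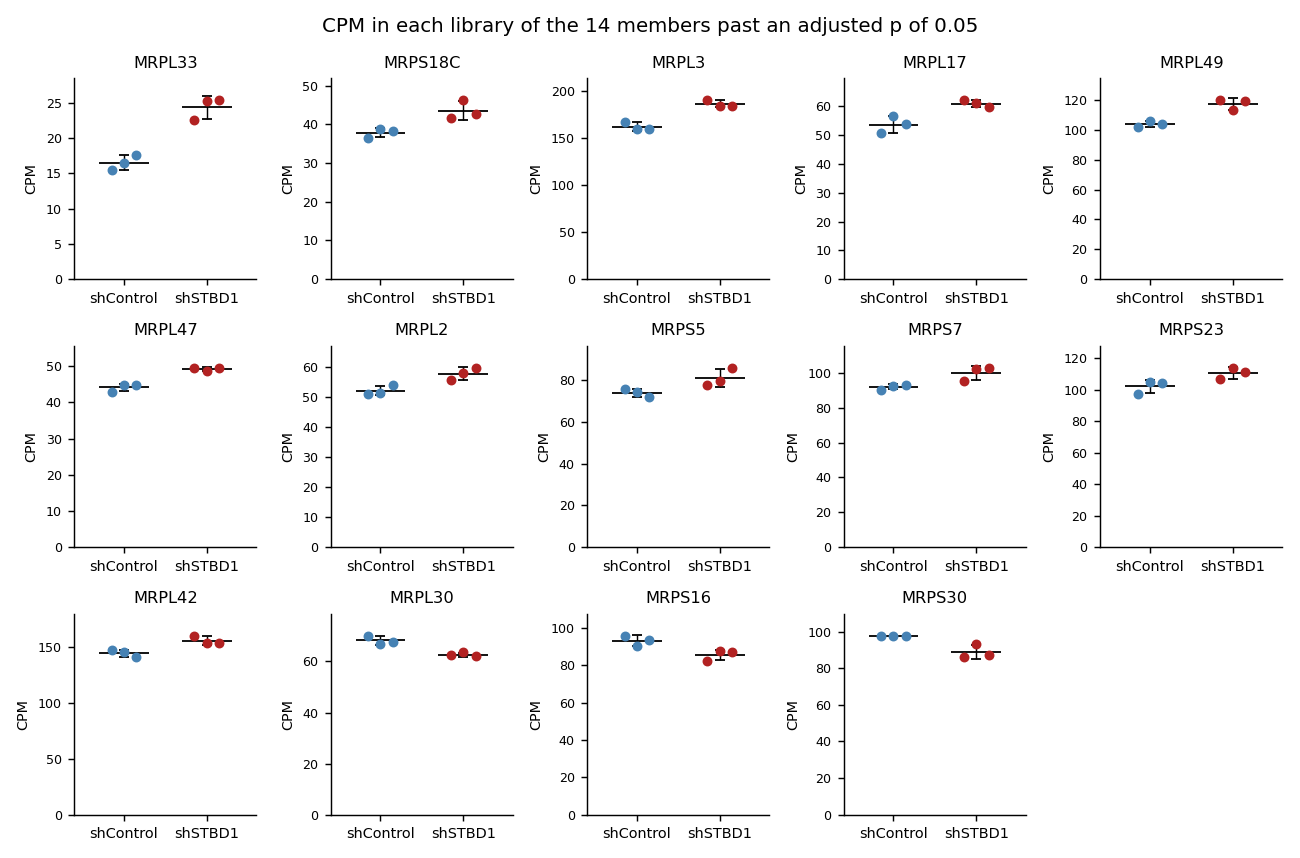
TMM-scaled CPM, from 0, in each library for the 14 members past an adjusted p of 0.05, ordered by log2 fold change. Points are libraries, horizontal lines the group means and error bars 1 SD (n = 3 each), and in all 14 panels the shControl (blue) and shSTBD1 (red) libraries do not overlap.

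Of the fixed set of members with a known role, MRPL3, MRPL42, MRPS16, MRPS18C and MRPS30 were called, as given above. The members that follow were not called. MRPL58, a peptidyl-tRNA hydrolase that became part of the ribosome, had a log2 fold change of 0.12 (SE 0.049; edgeR adjusted p = 0.103). For MRPL10, MRPL11 and MRPL12, which build the stalk and its base, the values were 0.091, 0.11 and 0.062 (edgeR adjusted p = 0.182, 0.0680 and 0.212). MRPS12, the counterpart of the bacterial protein at the decoding centre, was at 0.10 (edgeR adjusted p = 0.0990). Values of 0.094 for MRPS22, 0.058 for MRPS27, which has the repeat fold of RNA-binding pentatricopeptide proteins, 0.018 for MRPL44, which has a ribonuclease III fold, and -0.014 for MRPS34 came with edgeR adjusted p-values of 0.147 to 0.858. MRPL50, the least abundant, was at 23.5, 27.5 and 29.2 CPM against 29.1, 30.6 and 32.9 CPM, with overlap (0.21, SE 0.074; edgeR adjusted p = 0.0645), and passed the threshold in 5 of 18 alternatives. MRPL55, named after its values were seen, had the next largest log2 fold change after MRPL33 at 0.24, with the larger SE of 0.095 (edgeR adjusted p = 0.0918). MRPS36, which is not a ribosomal subunit, was at 0.10 (SE 0.08; edgeR adjusted p = 0.417).

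Short transcripts as a whole were higher in shSTBD1, and the members are short. Their median length was 1143 bases, compared with 2404 for all tested protein-coding genes. Among 3401 other protein-coding genes of similar length, between 732 and 1736 bases, the median log2 fold change was 0.046, 63.6% were above 0, 12.2% were called higher and 3.18% lower, where the members had 0.071, 83.3%, 14.1% and 3.85%. In the shortest decile of genes, with 39 members, the median was 0.077 for members and 0.091 for the others. It was 0.063 against 0.044 in the second decile, with 17 members, and 0.073 against 0.029 in the decile after it, with 15 members, whereas the longest decile of genes was at -0.046 and held none. In all, 43 of 78 members lay above the median of the other genes in their own decile. With offsets that took out the trend with length in each library, the members' median was 0.036 with 49 of 78 above 0. In that fit 10 members were called (12.8%), 8 of them among the 14. The genes of similar length then had a median of 0.010 with 53.2% above 0. Of them 13.7% were called, and of all tested genes 15.3%. The 77 cytosolic ribosomal protein genes had a median of 0.068 with 23 higher and 0 lower without these offsets, and 0.0043 with 5 higher and 1 lower with them.

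One control library weighed on the level of the whole list. The summed level of the members was 4621, 4783 and 4767 CPM in shControl and 4895, 4981 and 4939 CPM in shSTBD1, means of 4723 ± 89.1 and 4938 ± 43.0 CPM (SD, n = 3 each) with a ratio of 1.05. Per length the sums were 5750, 6331 and 6249 TPM against 6374, 6377 and 6336 TPM, so that shControl 1 alone lay well below the rest. The members' median log2 deviation from the mean of the 6 libraries was -0.071 in shControl 1, -0.015 and -0.013 in the other shControl libraries and 0.0096, 0.051 and 0.030 in the shSTBD1 libraries. The length trend read at the members' lengths moved with it, at -0.048, -0.0025 and -0.014 against 0.011, 0.030 and 0.028. Without shControl 1 the median log2 fold change of the members was 0.038, with 56 of 78 above 0 and 8 called (10.3%), all among the 14. In the same fit the genes of similar length had a median of 0.028 with 58.5% above 0. Of them 15.8% were called, and of all tested genes 16.5%. What part the length trend and shControl 1 have in the members' values beyond these fits was not tested.

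**Figure D3:**
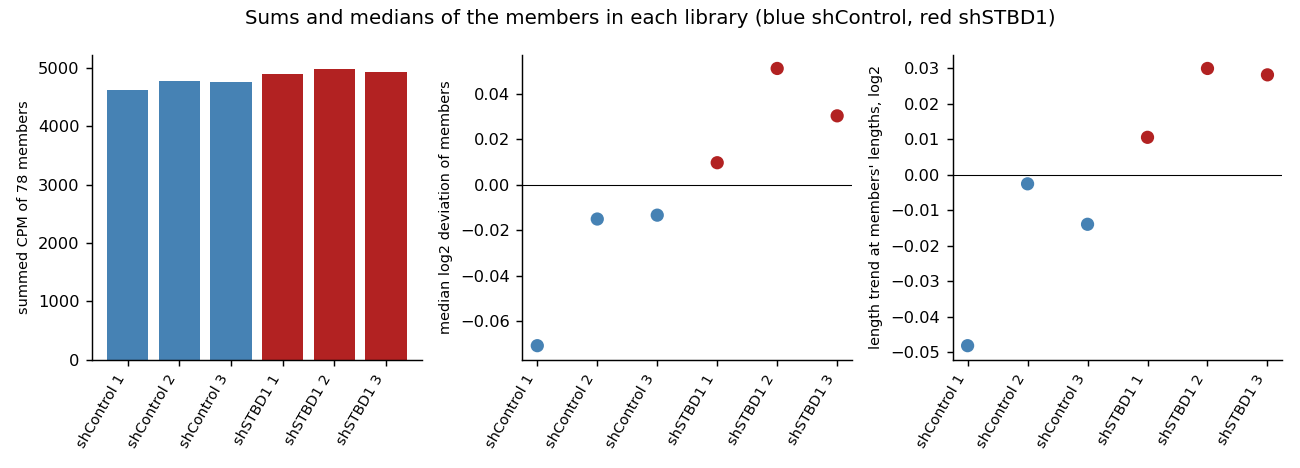
The 78 members in each library, with the sum of their CPM on the left (bars from 0), the median of their log2 deviations from the 6-library mean in the middle, and on the right the log2 offset of a loess trend on gene length at the members' lengths. All shSTBD1 libraries (red) are above the shControl libraries (blue) in all 3 panels, and shControl 1 is the lowest.

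The RNA parts of the same ribosome were lower, past the threshold in 16 of 18 alternatives for the large subunit and in 11 of 18 for the small subunit. MT-RNR2, the ribosomal RNA of the large subunit, was at 8550, 6630 and 6780 CPM in shControl and at 5830, 5460 and 5600 CPM in shSTBD1, without overlap, and its log2 fold change was -0.38 (SE 0.066; edgeR adjusted p = 9.46e-04). MT-RNR1, that of the small subunit, was at 1290, 1070 and 1090 CPM against 1050, 1000 and 1030 CPM, with a log2 fold change of -0.16 (SE 0.052; edgeR adjusted p = 0.0443). The call of MT-RNR1 was lost with DESeq2 (adjusted p = 0.226), with effective-length offsets (edgeR adjusted p = 0.181), with limma on TPM and without each shSTBD1 library in turn (edgeR adjusted p = 0.0870 to 0.183). shControl 1 was high in both, and without it the values were -0.25 and -0.074. The 13 mitochondrial messengers, which this ribosome translates, had 6 lower and 0 higher with a median of -0.19, and -0.058 without shControl 1, when 3 were higher and 6 lower. With gene-length offsets their median was -0.279, with 7 lower and 0 higher. Of all tested genes 7.54% were called lower in the main fit, and 16.5% in either direction without shControl 1. Counts from the mitochondrial genome made up 7.72, 6.32 and 6.41% of the shControl libraries and 6.15, 5.78 and 5.97% of the shSTBD1 libraries. Ribosomal and other mitochondrial RNAs are read in proportions that depend on how RNA was selected for the library, which is not given in the sources used here.

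The largest difference among the members and the genes of the pathway lists was in 1 assembly gene, RPUSD4. Of 31 assembly genes 3 were higher and 1 lower, with a median log2 fold change of 0.012. Of all tested genes 8.22% were called higher and 7.54% lower. RPUSD4, a pseudouridine synthase that modifies the large-subunit ribosomal RNA, was at 32.9, 34.2 and 34.6 CPM in shControl and at 56.7, 57.4 and 54.3 CPM in shSTBD1. The groups were far apart, at means of 33.9 ± 0.872 and 56.1 ± 1.61 CPM (SD, n = 3 each), and the log2 fold change of 0.73 (SE 0.048; edgeR adjusted p = 4.21e-08) was past the threshold in all 18 alternatives. Its relative RPUSD3, at 36.8, 39.7 and 38.3 CPM against 44.7, 48.9 and 44.6 CPM, rose by 0.27 on the log2 scale (SE 0.053; edgeR adjusted p = 0.00236). RPUSD3 overlaps TTLL3 on the other strand, which was itself higher at 0.36 (edgeR adjusted p = 1.22e-04), and the sources used here do not state a strand setting for the counts, so reads of these 2 genes cannot be told apart with certainty.

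SLIRP, which binds mitochondrial messengers together with LRPPRC, was at 35.1, 42.8 and 38.8 CPM against 42.9, 47.3 and 47.3 CPM. Its groups were separated by a very narrow gap, and its log2 fold change was 0.24 (SE 0.065; edgeR adjusted p = 0.0203, and 0.102 without shSTBD1 2). NGRN, which binds the large-subunit ribosomal RNA in a complex with the pseudouridine synthases, was at 144, 136 and 134 CPM in shControl and lower, at 128, 128 and 126 CPM, in shSTBD1 (-0.11, SE 0.036; edgeR adjusted p = 0.0393). SLIRP was past the threshold in 11 and NGRN in 10 of the 18 alternatives, each in 2 of the 6 fits that left out a library.

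Of 5 ribosomal subunits with other names, GADD45GIP1 of the large subunit was higher, at 92.5, 87.2 and 89.8 CPM against 96.5, 99.1 and 98.9 CPM (0.13, SE 0.036; edgeR adjusted p = 0.0237). It was past the threshold in 9 of 18 alternatives and in 1 of the 6 fits that left out a library. The others had log2 fold changes of 0.073 for AURKAIP1, 0.030 for CHCHD1, 0.021 for DAP3 and -0.0049 for PTCD3, all proteins of the small subunit, with edgeR adjusted p-values of 0.200 to 0.949. Among 15 translation factors none was higher and 1 was lower: GUF1, a relative of a bacterial elongation factor, was at 61.6, 58.9 and 62.6 CPM against 56.7, 52.0 and 52.4 CPM (-0.18, SE 0.046; edgeR adjusted p = 0.0123), and past the threshold in 12 of 18 alternatives. Of 12 regulators of nuclear genes for mitochondria 11 were tested and 1 was called, the transcription factor MYC, at 291, 317 and 309 CPM against 340, 334 and 326 CPM (0.12, SE 0.035; edgeR adjusted p = 0.0224), and past the threshold in 12 of 18 alternatives. The median over the tested regulators, among them NRF1, GABPA and YY1, was -0.015. Beside the counts of these lists, 15.8% of all tested genes were called in either direction.

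**Figure D4:**
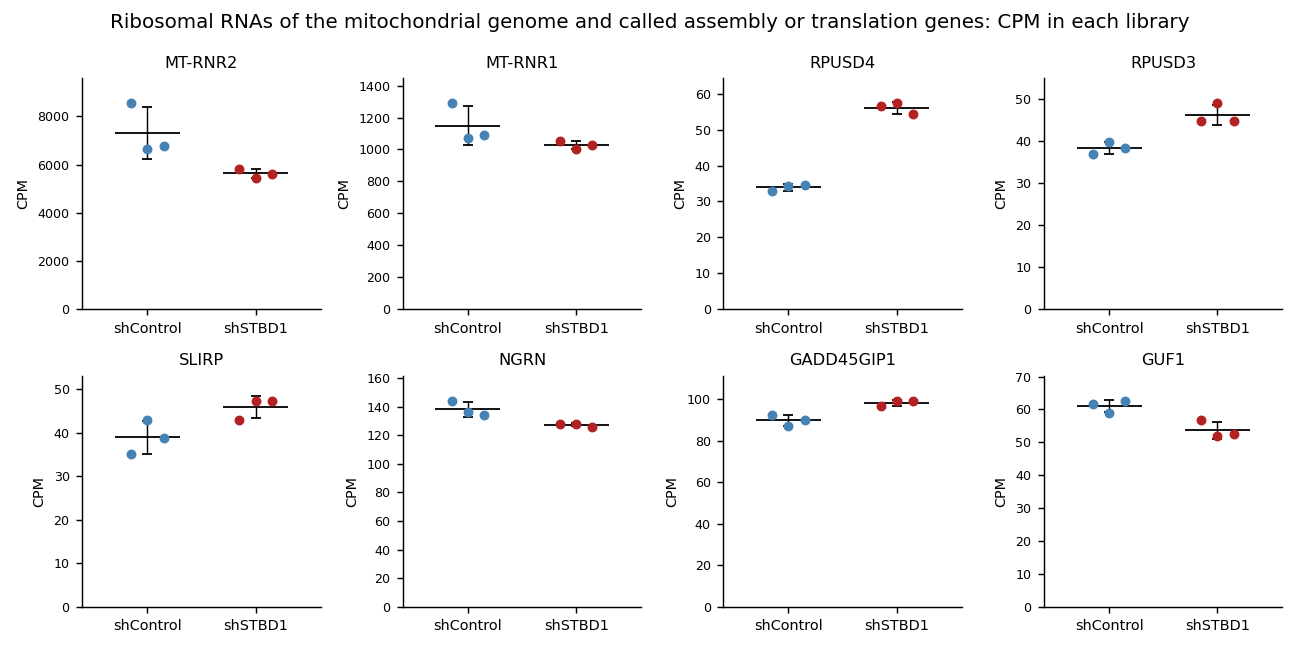
TMM-scaled CPM, from 0, in each library for the 2 mitochondrial ribosomal RNAs and the called genes of assembly, other-named subunits and translation factors. Points are libraries, lines group means and error bars 1 SD (n = 3 each), and RPUSD4 shows the widest gap between groups relative to its spread.

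In 8 members (10.3%) the transcript length RSEM estimated, a mean weighted by isoform, did not overlap between the groups, against 10.5% of the 13086 tested protein-coding genes. Besides MRPL42 and MRPS16, these were MRPS30, MRPL43, MRPS36 and MRPL39, shorter in shSTBD1, and MRPL18 and MRPL48, longer. The length of MRPL48 was 1350, 1321 and 1297 bases in shSTBD1 and 1259, 1182 and 1286 bases in shControl, so that the groups came close to each other. Assignment of reads to the members was nearly unique by RSEM's own measure. RSEM's posterior standard deviation, as a share of the count averaged over the 6 libraries, was at most 1.69% for any member. Of the 14 called members, 6 overlap another tested gene in the annotation, and none of those neighbours was called. On the other strand, log2 fold changes were 0.155 for SYVN1 (MRPL49), 0.164 for ABRAXAS1 (MRPS18C) and 0.124 for ACTL6A (MRPL47). They were 0.149 for RBKS (MRPL33) and 0.060 for GGA3 (MRPS7), but -0.152 for KLC4 (MRPL2) and -0.18 for MIF4GD (MRPS7). As no strand setting is stated, reads shared by these genes cannot be told apart with certainty, and their part was not tested.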

How the data were processed

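RNA-seq libraries of HCT116 cells, 3 shControl and 3 shSTBD1 biological replicates, were grouped by their labels. The authors used STAR 2.7.1a to align cleaned reads to Hg38, with gene models of Ensembl release 93, and RSEM 1.3.1 to estimate abundance. They deposited expected counts, which are not normalized, and TPM values, which the authors' RSEM run scaled by effective length to the same total per library, with gene lengths and posterior standard deviations. Of 58395 genes, 57754 matched a symbol in GENCODE release 44, a later annotation of the same build.

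Expected counts were rounded, filtered by filterByExpr, scaled by TMM (factors 0.979 to 1.009) and tested in R 4.3.3 with the quasi-likelihood test of edgeR 4.0.16, with Benjamini-Hochberg adjustment over 15566 genes and a threshold of 0.05. The script was tested on simulated data. Alternatives were DESeq2 1.42.0, limma 3.58.1 on log2(TPM + 1) and log2(TPM + 0.1), other scalings and filters, length and GC offsets (loess span 0.3), a replicate block and leaving out each library. Depth was 17689097 to 21668274 counts per library, and 290 to 4011 for a member. Counting error and replicate spread were not separated.

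Members and lists were chosen with earlier results of these data known, so no p over a list is given. Named genes were the called members without overlap between groups, a fixed set of members with a known role, the lowest and highest by TPM, the other-named subunits, STBD1 and called genes of the lists of the pathway. Cells re-expressing STBD1 were not analysed here.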

Additional observations from a re-analysis of the deposited data

How the results depend on the processing

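Of the members, 11 were called higher and 3 lower. The higher count was 5 with DESeq2, 2 with effective-length offsets, 6 with gene-length offsets and 6 with these and the replicate block, 1 with limma at either pseudocount, and 3 to 8 without 1 library. The lower count was 1 with DESeq2, 1 with library size alone, 0 with effective-length offsets, 0 with limma at either pseudocount and 0 to 1 without 1 library. The other fits gave 10 to 14 higher and 2 to 4 lower. Of all tested genes 15.8% were called in the main fit and 15.3% with gene-length offsets. With effective-length offsets 3.28% were called, and with limma at a pseudocount of 1 1.88%. The members' shares in the same 4 fits were 17.9%, 12.8%, 2.56% and 1.28%. The 6 calls among other-named subunits, assembly genes and translation factors became 1 with effective-length offsets, 1 with limma at either pseudocount, and 2 to 5 without 1 library. The members' median of 0.071 became 0.0363 with gene-length offsets, 0.0359 with these and the replicate block, and 0.0375 to 0.0923 without 1 library. STBD1 was lower in every fit, but limma gave -0.54 (adjusted p = 0.0646) at a pseudocount of 1 and -0.65 (adjusted p = 0.0672) at 0.1. The cause of these moves was not tested. Where a library was left out, the number of samples was also smaller, and its part was not tested either.

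Same-numbered libraries of the 2 groups had correlations of 0.0708, 0.0676 and -0.00841 in their deviations from the group means, and the numbers were not taken as pairing. With the replicate block 14 members were higher and 2 lower, with 12 of the 14 called members among them, and the median was 0.0710.

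Over the 40 named genes, 720 values under alternatives kept direction and side of the threshold in 526 cases, lost the threshold in 160, gained it in 5, all MRPL50, and changed sign in 29, none of a called gene. With gene-length offsets, CHCHD1 moved to -0.0299, DAP3 to -0.0149, MRPL44 to -4.33e-04 and MRPS18A to -0.0255, and with the replicate block added to -0.0299, -0.0150, -7.59e-04 and -0.0256. Effective-length offsets gave DAP3 -0.0214, MRPS18B 0.0140 and PTCD3 0.0877. With limma at a pseudocount of 1 the values were -0.0306 for DAP3, -0.00325 for MRPL44, 4.99e-04 for MRPS18B and 0.0785 for PTCD3, and at 0.1 they were -0.0307, -0.00325, 4.5e-04 and 0.0793. Library size alone gave PTCD3 0.00516. Without 1 library the ranges were -0.0419 to 0.0908 for CHCHD1, -0.00369 to 0.0551 for DAP3, -0.0126 to 0.0779 for MRPL44, -0.0477 to 0.00909 for MRPS34 and -0.0348 to 0.0183 for PTCD3.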
